A study of Mus musculus with 4 samples.

Results

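The genes described here are the axon guidance ligands and receptors of the mouse: the semaphorins (Sema), plexins (Plxn), neuropilins (Nrp1, Nrp2), Eph receptors (Epha, Ephb), ephrins (Efna, Efnb), Slits, Robos, netrins (Ntn, Ntng), the Unc5 receptors, Dcc and neogenin (Neo1). They were chosen by symbol, after the transcripts of each gene had been summed. Of 16339 named genes, 72 belonged to the set, in 16 families with 159 transcripts, and 69 of them were among the 14344 genes that passed the filter on low counts. The others were Efna4, Unc5cl and Epha1, which were below the filter. Efna4 and Unc5cl are described only by their values, and Epha1 also in the fits that tested it. Unc50 shares the letters of the Unc5 genes but encodes an unrelated protein of intracellular membranes, and was left out.

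The samples were hypothalami of male C57BL/6 mice fed a western diet (WD, a diet with 60% fat together with a 30% sucrose solution) for 12 weeks, and their RNA was sequenced. Both groups received WD. The diet began at 8 weeks of age. One group carried a conventional, whole-body knockout of Tas1r3, a subunit of the sweet and umami taste receptors, backcrossed to C57BL/6 (Tas1r3-/-), and the other was wild-type (WT) littermates matched for age and weight. The study reports that WD-fed Tas1r3-/- mice then gained less weight than WD-fed WT mice. Body weight and genotype cannot be told apart here. Each group had 2 libraries, called WT1 and WT2 (WD-fed WT) and KO1 and KO2 (WD-fed Tas1r3-/-), and the question asked was which genes differ between the genotypes under WD. Since no label says whether the libraries come from single or pooled mice, the p-values measure only the spread between these libraries.

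Axon guidance molecules steer growing axons. Secreted or membrane-bound ligands (semaphorins, ephrins, Slits, netrins) bind receptors on the growth cone (plexins with neuropilins, Eph receptors, Robos, and Dcc or Unc5), which redirect the cytoskeleton through small GTPases and kinases. In the adult brain many of these genes remain active in patterns that differ between regions, and their products act on synapses, neuronal migration and blood vessels.

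Library depth ranged from 5874782 to 6273772 estimated counts, and expression is given as CPM, the count of a gene per 1e6 counts assigned to named genes after scaling. The 3 counts taken as the detection floor were worth 0.485 to 0.524 CPM, and this floor covers counting error only. The targeted gene matched its labels, with 35.32 and 27.0 estimated counts of Tas1r3 in WT1 and WT2 and 7.0 and 7.01 in KO1 and KO2. One library did not match its tissue label. In WT2, all 20 genes on a list of hypothalamic markers were at least 2-fold below the mean of the other 3 libraries. The summed level of that list was 2343 CPM in WT1, 88.6 in WT2, 1703 in KO1 and 1647 in KO2, and the defining genes Nkx2-1 and Nr5a1 were at 0 in WT2. All 19 genes on a list of thalamic markers were at least 2-fold above the other libraries in WT2, with summed levels of 916, 5021, 963 and 1295 CPM in the same order. A list of habenular markers, added after the values had been seen, was also higher in WT2 (1501 CPM against 324 to 387), as was the choroid plexus list (1150 CPM against 180 to 204). The summed level of 12 pituitary markers was highest in KO1 instead (1924 CPM against 343 to 427). Only 4 of these genes passed the filter on low counts. Of the 4, 2 were at least 2-fold from the mean of the other libraries in KO1, and 3 were at least 2-fold below it in WT2. The fold changes between the genotypes are therefore given with all 4 libraries and, for the genes described in full, without WT2. Without it, the WT group is the single library WT1, which the model assumes to vary as the KO pair does.

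No axon guidance gene passed the threshold for a difference between the genotypes. Nor did the knocked-out gene Tas1r3 in the edgeR fit with all 4 libraries, at a log2 fold change of -2.13 ± 0.42 (SE). The lack of calls in that fit is therefore not evidence that no gene differs. With all 4 libraries, the quasi-likelihood test of edgeR, adjusted by the Benjamini-Hochberg method, called 0 of 69 axon guidance genes and 0% of the 14344 genes tested (adjusted p under 0.05 with a fold change of at least 1.5). No adjusted p was below 0.757. Without adjustment, 4 of 69 axon guidance genes (5.8%) had a p under 0.05, close to the 5.38% of all genes (772) that did. The 4 genes were Sema3c, Nrp1, Plxna2 and Robo2, all with higher means in Tas1r3-/- mice, the direction of 3.5% of all genes at that threshold. DESeq2, run without the filter on low counts, called 8 of 16339 genes (0.049%) but 0 axon guidance genes. It had 5 of 72 at an unadjusted p under 0.05 (Epha1, Epha8, Plxna2, Robo3 and Sema3e), against 2.49% of all genes. All of these but Plxna2 were high in WT2 alone, and Epha1 was below the filter of the edgeR fit. A limma-trend fit called 0 axon guidance genes, and also had 5 at an unadjusted p under 0.05, against 5.43% of all genes. Over the 69 genes, the mean was higher in Tas1r3-/- mice for 44 (63.8%, against 49% of all genes) and the median log2 fold change was 0.07, against -0.01 over all genes tested. The libraries of the 2 genotypes did not overlap for 20 genes (29%), 16 with Tas1r3-/- above and 4 below, against 39.6% of all genes (20.6% above and 19% below).

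**Figure D1:**
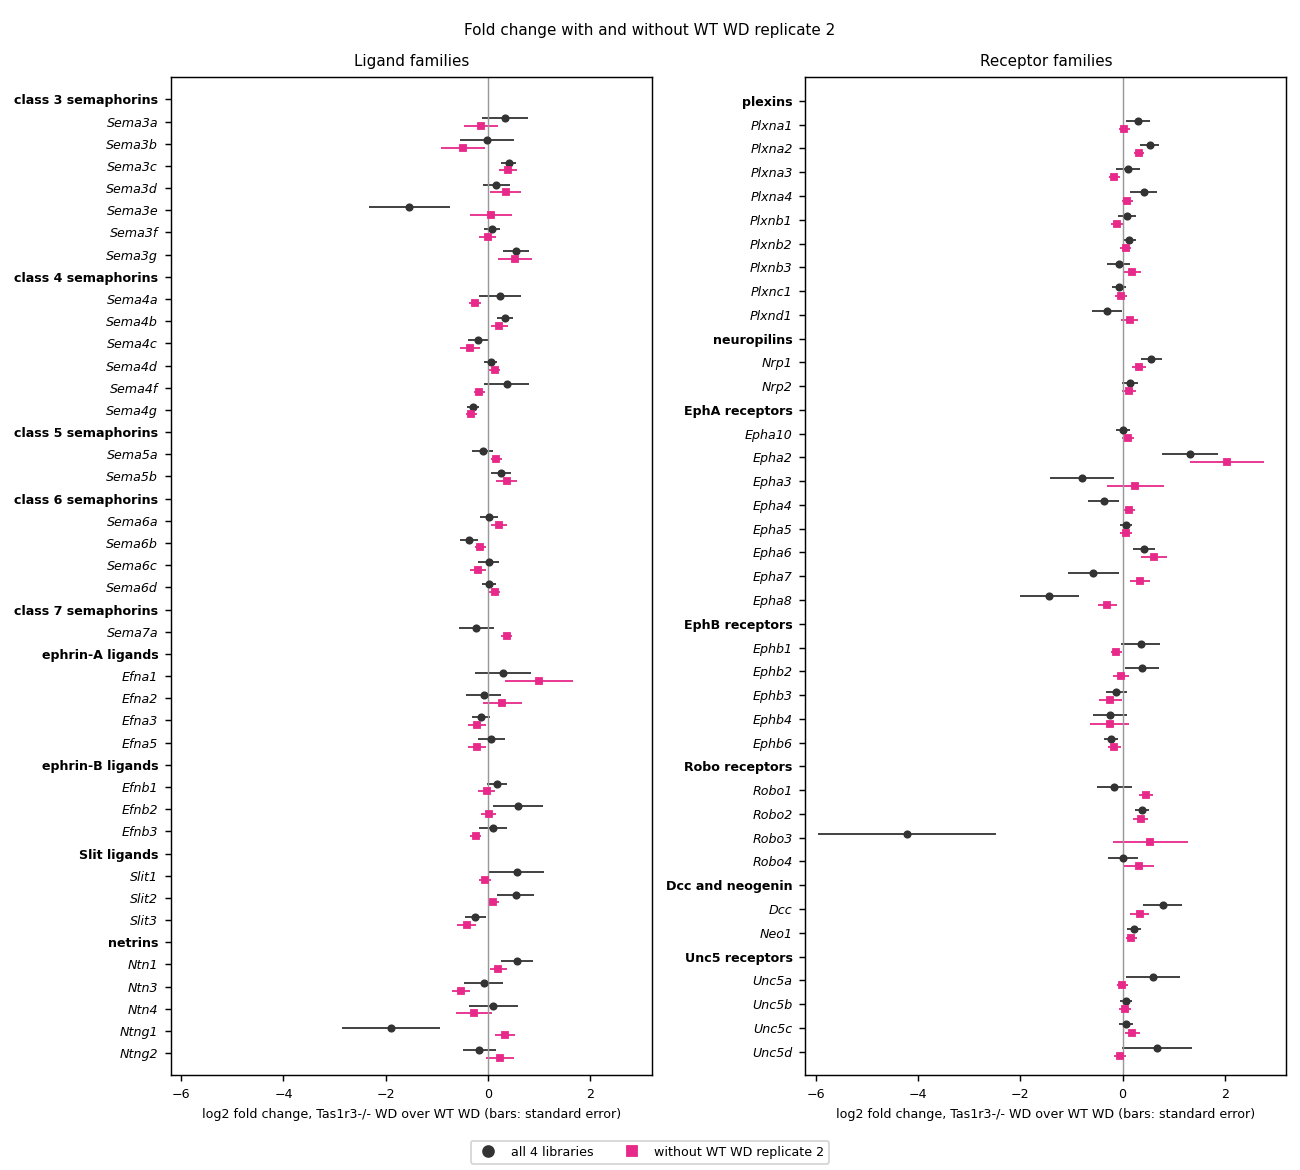
Log2 fold change of each axon guidance gene (WD-fed Tas1r3-/- over WD-fed WT) by family, fitted with all 4 libraries and again without WT2, with bars for the standard error. The values for Robo3, Ntng1, Sema3e and Epha8 move towards 0 when WT2 is left out, while those of Sema3c and Robo2 hardly move.

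Without WT2, the comparison of WT1 with KO1 and KO2 again called 0 of 69 axon guidance genes, against 0.217% of the 14714 genes then tested. At an unadjusted p under 0.05 there were 11 (15.9%, against 13.7% of all genes), 8 higher (11.6%, against 8.32%) and 3 lower in Tas1r3-/- mice. The 8 higher were Epha2, Epha6, Nrp1, Plxna2, Robo1, Robo2, Sema3c and Sema7a, and the 3 lower were Ntn3, Sema4g and Slit3. Their smallest adjusted p, for Robo1, was 0.226 by edgeR's quasi-likelihood test. Fold changes were small. For 66 of the 69 genes (95.7%, against 89.1% of all genes) the fitted fold change was under 1.5 in either direction, and the exceptions were Epha2, Efna1 and Epha6. The log2 fold change kept its sign between the fits with and without WT2 for 40 of the 69 genes (58%), against 72.8% of all genes.

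The semaphorins signal through plexins, and most class 3 semaphorins need a neuropilin as co-receptor. Sema3c, Nrp1 and Plxna2, a ligand, a co-receptor and a receptor of this system, were among the 4 genes at an unadjusted p under 0.05 by edgeR. Those 4 were 5.8% of the 69 genes, near the 5.38% of all genes, so they are not read as a joint change. Sema3c, a secreted class 3 semaphorin (chr5:17779219-17935648, + strand, GRCm39), was measured at 23.1 CPM in WT1, 22.7 in WT2, 31.3 in KO1 and 29.4 in KO2. Both Tas1r3-/- libraries were above both WT libraries, and the WT libraries lay close together. The log2 fold change was 0.40 ± 0.15 (SE, n = 2 against 2, edgeR adjusted p = 0.757), and 0.39 ± 0.17 without WT2.

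The 250 bases upstream of the start of 1 Sema3c transcript are shown because the fold change of this gene hardly moved without WT2. They are printed 5′ to 3′ on the strand of the gene, from GRCm39 with the start from GENCODE, and capitals mark matches to 3 short motifs searched on both strands, CTTTGA (the core of TCF/LEF sites), TAATTA (a homeodomain core) and CAGCTG (an E-box), which do not overlap here.
Sema3c, chr5:17778969-17779218, + strand: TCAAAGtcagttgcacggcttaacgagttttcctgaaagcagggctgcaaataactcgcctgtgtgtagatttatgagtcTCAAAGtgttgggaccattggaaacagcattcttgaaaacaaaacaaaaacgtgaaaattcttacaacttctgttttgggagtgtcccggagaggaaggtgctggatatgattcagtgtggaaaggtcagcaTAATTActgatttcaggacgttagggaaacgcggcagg
Sema3c held 2 matches to CTTTGA, read as TCAAAG, and 1 to TAATTA. Of 21770 promoters of the same length, 14.1% held CTTTGA, 5.18% TAATTA and 11.9% CAGCTG, and of the promoters of the 72 guidance genes 15.3%, 4.17% and 15.3% did.

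Nrp1 (chr8:129085085-129231082, + strand), which also binds vascular endothelial growth factor, was at 50.9 CPM in WT1, 35.7 in WT2, 61.6 in KO1 and 65.8 in KO2. The groups did not overlap, but the WT libraries differed from each other by more than WT1 did from KO1. Its log2 fold change was 0.56 ± 0.20 (SE, edgeR adjusted p = 0.757) and became 0.32 ± 0.13 without WT2. The other neuropilin, Nrp2, which serves Sema3f, was measured at 81.1 CPM in WT1, 79.3 in WT2, 98.4 in KO1 and 78.7 in KO2. Its groups overlapped, with a log2 fold change of 0.14 ± 0.16, or 0.13 ± 0.14 without WT2.

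Plxna2 (chr1:194300526-194499177, + strand), a receptor for class 3 and class 6 semaphorins, was at 87.8 CPM in WT1, 64.3 in WT2, 109 in KO1 and 110 in KO2. The KO libraries nearly coincided, and WT2 was the lowest of the 4. Its log2 fold change was 0.53 ± 0.19 (SE, edgeR adjusted p = 0.757), and 0.32 ± 0.10 without WT2. Plxna4, another receptor of the same class, had 122 CPM in WT1, 74.2 in WT2, 132 in KO1 and 128 in KO2. The KO libraries exceeded both WT libraries, though WT1 was close to KO2, and the log2 fold change of 0.41 ± 0.26 became 0.09 ± 0.11 without WT2. Across the 9 plexins the median log2 fold change was 0.11, or 0.06 without WT2, and the other members of the family had log2 fold changes between -0.31 (Plxnd1) and 0.30 (Plxna1). Plxnb2, the plexin with the highest level per kilobase of transcript, was at 154 ± 10.6 CPM in WT and 168 ± 9.83 CPM in Tas1r3-/- mice (mean ± SD, n = 2 each), with a log2 fold change of 0.13 ± 0.13, or 0.06 ± 0.11 without WT2.

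Among the other class 3 semaphorins, Sema3g, made by vascular endothelium, had 6.69 CPM in WT1, 6.58 in WT2, 9.14 in KO1 and 10.1 in KO2. Its groups did not overlap, at a log2 fold change of 0.54 ± 0.25 (edgeR adjusted p = 0.757), or 0.53 ± 0.33 without WT2. Sema3a, the classical growth cone collapsing factor, had 8.57, 3.78, 8.50 and 7.0 CPM in WT1, WT2, KO1 and KO2. Only WT2 was apart, and the log2 fold change of 0.33 ± 0.45 turned to -0.14 ± 0.33 without it. Sema3f had means of 27.8 ± 2.60 CPM in WT and 29.4 ± 1.46 in Tas1r3-/- mice (SD, n = 2), and a log2 fold change of 0.08 ± 0.16, or -0.01 ± 0.16 without WT2.

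The semaphorins with the highest levels per kilobase of transcript were membrane-bound. Sema4a had 39.7 CPM per kilobase in WT1, 17.2 in WT2, 30.8 in KO1 and 36.2 in KO2, so that WT2 was the lowest, and its log2 fold change turned from 0.23 ± 0.41 to -0.25 ± 0.12 without WT2. Sema4b was 28.3 CPM in WT1, 24.0 in WT2, 31.7 in KO1 and 34.1 in KO2. Its groups did not overlap, with a log2 fold change of 0.33 ± 0.16, or 0.22 ± 0.16 without WT2. Sema4g, which had the smallest p among the genes lower in Tas1r3-/- mice, was measured at 149 CPM in WT1, 144 in WT2, 119 in KO1 and 118 in KO2. The gap between the genotypes was wider than the spread within either, at a log2 fold change of -0.30 ± 0.12 (edgeR adjusted p = 0.757), and -0.33 ± 0.11 without WT2. This gene was outside the rule for named genes and was chosen after its values were seen. Sema6b, a transmembrane ligand of plexin A receptors, had 133 CPM in WT1, 176 in WT2, 116 in KO1 and 123 in KO2. It was lower in both KO libraries, but the WT libraries lay further apart from each other than WT1 from KO2, and the log2 fold change of -0.37 ± 0.18 shrank to -0.15 ± 0.11 without WT2. Sema7a, the membrane-anchored semaphorin, had 60.2 CPM in WT1, 120 in WT2, and 77.4 and 77.0 CPM in KO1 and KO2. The KO values lay between the 2 WT values, so the sign of the fold change turned with the library left out (-0.23 ± 0.34 with all libraries and 0.36 ± 0.11 without WT2). Sema5a also changed sign, from -0.11 ± 0.20 to 0.16 ± 0.11 on the log2 scale.

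Slits are secreted ligands that repel axons through Robo receptors. Of the 3 Slits and 4 Robos, the fold changes of Slit1, Slit2, Robo1 and Robo3 moved most without WT2, and that of Robo2 hardly moved. Robo2 (chr16:73688727-75244270, - strand) had 36.2 CPM in WT1, 34.7 in WT2, 48.1 in KO1 and 44.3 in KO2. The WT libraries were close together and both KO libraries were above them, at a log2 fold change of 0.38 ± 0.13 (SE, edgeR adjusted p = 0.757) and of 0.35 ± 0.15 without WT2. Robo1 had 39.9 CPM in WT1, 82.5 in WT2, 57.9 in KO1 and 52.1 in KO2. Here the WT libraries bracketed the KO libraries, and the log2 fold change of -0.16 ± 0.35 became 0.46 ± 0.14 without WT2. Slit1 was at 171 CPM in WT1, 52.6 in WT2, 160 in KO1 and 170 in KO2. WT1, KO1 and KO2 lay close together and WT2 was low, so that the log2 fold change was 0.56 ± 0.54 with all libraries and -0.06 ± 0.11 without WT2. Slit2 was also lowest in WT2, with 71.0, 33.5, 78.9 and 73.3 CPM and a log2 fold change of 0.54 ± 0.36, or 0.10 ± 0.11 without WT2. The median of the 3 Slits went from 0.54 to -0.06 on the log2 scale when WT2 was left out.

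Netrin-1 attracts axons through Dcc and repels them when Unc5 receptors take part. Dcc was measured at 27.8 CPM in WT1, 12.7 in WT2, 38.3 in KO1 and 31.1 in KO2. The groups did not overlap, and the value in WT2 was the furthest from the others. The log2 fold change was 0.78 ± 0.39 (edgeR adjusted p = 0.757) and 0.33 ± 0.18 without WT2. Neo1, the paralogue of Dcc, had one of the highest levels per kilobase of the set and was 143 CPM in WT1, 132 in WT2, 168 in KO1 and 154 in KO2. Again the groups were separate, by a log2 fold change of 0.22 ± 0.13, or 0.17 ± 0.11 without WT2. The ligand Ntn1 had 28.6, 15.6, 33.5 and 32.2 CPM in WT1, WT2, KO1 and KO2, with a log2 fold change of 0.57 ± 0.31 that became 0.20 ± 0.16 without WT2. Unc5a, at 81.6 CPM in WT1, 26.0 in WT2, 77.0 in KO1 and 85.9 in KO2, was again low in WT2 alone. Its log2 fold change of 0.60 ± 0.53 was reduced to -0.00368 ± 0.11. Unc5b and Unc5c stayed between 44.6 and 60.0 CPM in every library.

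**Figure D2:**
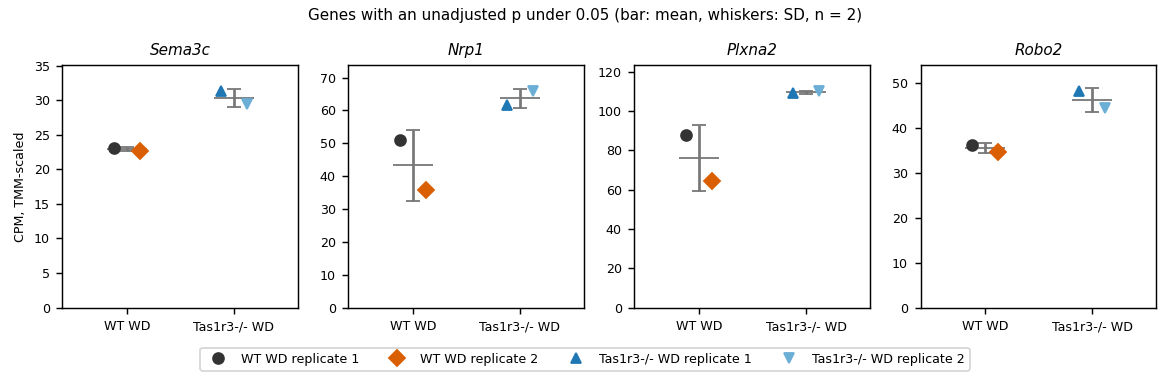
Level in CPM (vertical axis, from 0) of Sema3c, Nrp1, Plxna2 and Robo2 in each library, with 1 point per library and the group mean with its SD (n = 2). Both WD-fed Tas1r3-/- libraries lie above both WD-fed WT libraries for each gene, and WT2 is well below WT1 for Nrp1 and Plxna2 but not for Sema3c and Robo2.

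Ephrins are membrane-bound and signal by cell contact to the Eph receptor kinases, often with signalling in both cells. Epha2 had the largest positive fold change of the set but rested on few reads, with 0.857 CPM in WT1, 1.97 in WT2, 4.17 in KO1 and 2.97 in KO2, from 5 to 26 estimated counts per library. The KO libraries were above both WT libraries, with a log2 fold change of 1.32 ± 0.55 (edgeR adjusted p = 0.757). The size depended on the WT library, at 2.04 ± 0.72 without WT2 and 0.86 ± 0.60 without WT1. Epha6 was 9.77 CPM in WT1, 12.5 in WT2, 15.2 in KO1 and 14.5 in KO2, at a log2 fold change of 0.42 ± 0.22, or 0.61 ± 0.25 without WT2. Epha5, a main receptor of ephrin-A ligands in the forebrain, varied little, with 61.2 ± 0.0242 CPM in WT and 64.3 ± 2.67 in Tas1r3-/- mice (SD, n = 2), and a log2 fold change of 0.07 ± 0.12 with or without WT2. Epha4, which binds ephrins of both classes, had 65.0 CPM in WT1, 119 in WT2, 67.5 in KO1 and 74.4 in KO2. WT1, KO1 and KO2 were similar and WT2 was high, and the log2 fold change went from -0.37 ± 0.30 to 0.13 ± 0.12 without it. Ephb6, an Eph receptor without kinase activity, was lower in both KO libraries (56.0 and 64.4 CPM) than in both WT libraries (67.2 and 74.2 CPM), at a log2 fold change of -0.23 ± 0.14, or -0.16 ± 0.13 without WT2. Among the ephrins, Efnb3 had the highest mean level per kilobase of transcript of all the guidance genes. It was at 62.0 CPM per kilobase in WT1, 36.7 in WT2, 53.9 in KO1 and 51.1 in KO2. In WT2 itself, Ntng1 (68.6) and Sema6b (46.7) were higher. The log2 fold change of Efnb3 was 0.09 ± 0.27 with all libraries and -0.24 ± 0.11 without WT2. Efna3, at 49.7 ± 3.72 CPM in WT and 44.9 ± 8.70 in Tas1r3-/- mice (SD, n = 2), had overlapping groups, with a log2 fold change of -0.14 ± 0.18, or -0.22 ± 0.17 without WT2.

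Of the remaining members that were tested, the groups did not overlap for Sema5b and Unc5b, at log2 fold changes of 0.25 ± 0.20 and 0.06 ± 0.12, or 0.36 ± 0.21 and 0.05 ± 0.12 without WT2. Robo4, the Robo of blood vessels, had 8.91 CPM in WT1, 13.3 in WT2, 10.1 in KO1 and 12.2 in KO2. Levels were also even for Epha10 (63.3 to 71.9 CPM), Plxnc1, the receptor of Sema7a (110 to 122 CPM), Sema4d (97.2 to 110 CPM) and Sema6d, a ligand of Plxna1 (128 to 147 CPM), whose log2 fold changes lay between -0.07 and 0.05. Plxna1, Plxna3, Plxnb1 and Ephb2 were each lowest in WT2, and without it their log2 fold changes were 0.03, -0.16, -0.11 and -0.03. Ntn3 and Slit3 were, beside Sema4g, the genes at an unadjusted p under 0.05 without WT2 that were lower in Tas1r3-/- mice. Ntn3 had 27.6 CPM in WT1, 13.0 in WT2, 20.2 in KO1 and 17.8 in KO2, and Slit3 27.9, 21.7, 21.8 and 19.9 CPM. In both cases WT2 was close to or below the KO libraries, and with all 4 libraries the log2 fold changes were -0.09 ± 0.38 and -0.25 ± 0.20. Efna1 was near the lower end of the measured range, at 1.54 CPM in WT1, 3.45 in WT2, 3.69 in KO1 and 2.45 in KO2. Efna4 (0.160 to 0.875 CPM) and Unc5cl (0.164 to 0.962 CPM) were at or about the detection floor. Unc5cl had 3 estimated counts in both WT1 and KO2, 1 in WT2 and 6.03 in KO1. Its groups were therefore not separate in counts, and the gene was below the filter on low counts. These genes were outside the rule for named genes and are given to complete the families.

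**Figure D3:**
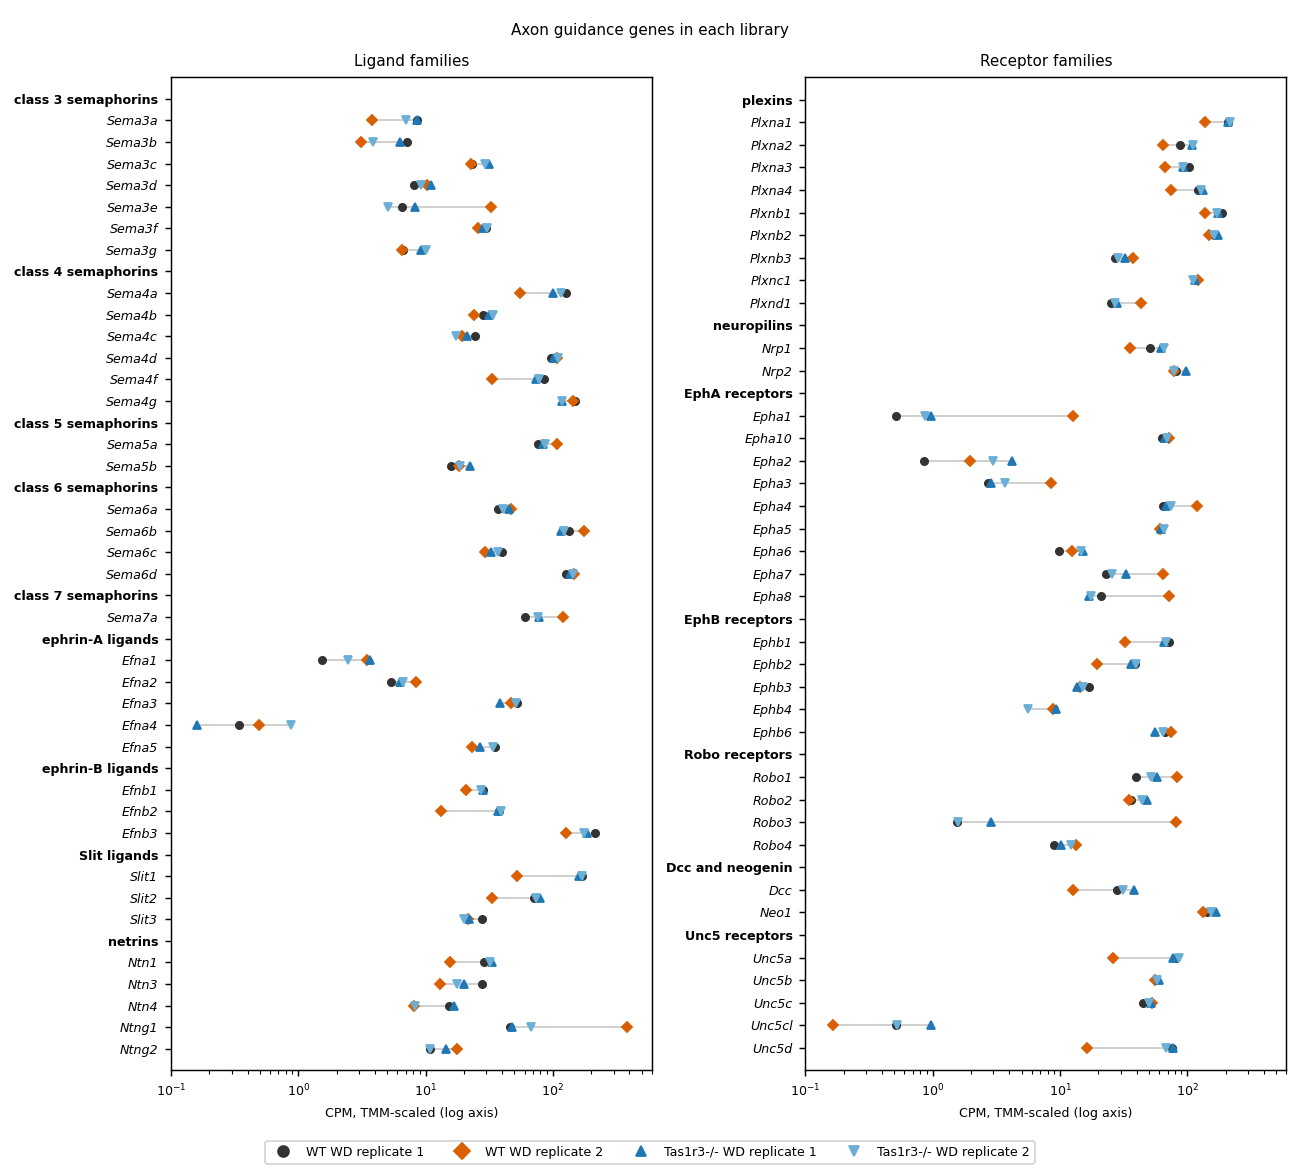
Level of each axon guidance gene in each library (CPM, horizontal log axis), arranged by family with 1 marker per library. WT1, KO1 and KO2 lie close together for most genes, and WT2 departs from them most for Robo3, Epha1, Ntng1 and Sema3e (above) and for Unc5d, Slit1 and Unc5a (below).

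The largest differences in the set were between WT2 and the other 3 libraries, of both genotypes. For 15 of the 69 genes tested (21.7%) the level in WT2 was at least 2-fold from the mean of the other libraries (each as CPM plus 0.5), 6 above and 9 below, while the same criterion gave 4 genes for WT1, 3 for KO1 and 4 for KO2. Over all genes tested it gave 9.08% for WT2 (4.04% above and 5.03% below), 2.8% for WT1, 2.24% for KO1 and 2.26% for KO2. The root mean square log2 difference over the 69 genes was 1.119 between the WT libraries and 0.275 between the KO libraries, against 0.734 and 0.355 over all genes. WT1 differed from KO1 by 0.372 and from KO2 by 0.339, against 0.394 and 0.398 over all genes. The marker lists of hypothalamus, thalamus and habenula given above moved with WT2. Their part in these differences was not tested, and region and genotype cannot be told apart in any result that rests on WT2. Without WT2, the median log2 fold change was -0.41 for the hypothalamic list, 0.75 for the thalamic list and -0.03 for the habenular list. Region and genotype cannot be fully told apart in that fit either. Nor can fewer cells of a type be told apart from less RNA per cell in such tissue samples.

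Robo3, the receptor that lets commissural axons approach and cross the midline (chr9:37326965-37344737, - strand), stood furthest apart, with 82.1 CPM in WT2 against 1.54 in WT1, 2.89 in KO1 and 1.57 in KO2. Ntng1 or netrin-G1, a membrane-anchored netrin of thalamic axons (chr3:109687356-110051327, - strand), was 384 CPM in WT2 against 45.8 in WT1, 47.6 in KO1 and 67.5 in KO2. Sema3e, the ligand of Plxnd1, was 32.6 CPM in WT2 and 5.07 to 8.34 CPM in the others. For these genes the negative fold change of the full comparison (log2 -4.21 ± 1.74 for Robo3, -1.90 ± 0.96 for Ntng1 and -1.54 ± 0.79 for Sema3e) came with KO levels near that of WT1, and without WT2 the log2 fold changes were 0.54, 0.33 and 0.05. The EphA receptors Epha8, Epha7, Epha3 and Epha1 were also high in WT2. Epha8 was 71.2 CPM there against 16.8 to 21.1 elsewhere, and its log2 fold change was -1.43 ± 0.58 with all libraries (edgeR adjusted p = 0.757) and -0.30 ± 0.19 without WT2. Epha7 was 64.0 CPM against 23.1 to 32.9, and Epha3 8.55 CPM against 2.74 to 3.67. Epha1, which was below the filter on low counts, was 12.7 CPM in WT2 against 0.514 to 0.962.

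The same 250 bases are shown for Ntng1, which had the widest gap in CPM between WT2 and the others. They held none of the 3 motifs.
Ntng1, chr3:110051328-110051577, - strand: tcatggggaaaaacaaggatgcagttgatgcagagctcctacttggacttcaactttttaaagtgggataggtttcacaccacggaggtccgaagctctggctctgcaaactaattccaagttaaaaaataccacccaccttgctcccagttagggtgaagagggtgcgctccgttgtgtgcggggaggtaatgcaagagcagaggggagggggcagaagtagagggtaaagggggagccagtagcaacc

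The 9 genes that were low in WT2 included Slit ligands, Dcc and Unc5 receptors, and an ephrin-B ligand with its receptor. Unc5d (chr8:29136745-29709664, - strand) had the lowest ratio, with 16.3 CPM in WT2 against 75.4 in WT1, 77.1 in KO1 and 68.6 in KO2. Slit1, Slit2, Unc5a and Dcc were given above. Efnb2, the ephrin-B ligand that also marks arteries, was 13.2 CPM in WT2 and 37.4 to 39.5 in the others, and its receptor Ephb1 32.7 CPM against 65.4 to 72.0. The remaining genes were the class 4 semaphorins Sema4f (33.5 CPM against 74.2 to 85.5) and Sema4a (55.6 against 99.6 to 128). In each case the 2 KO libraries and WT1 lay on the same side of WT2, which follows largely from how these genes were chosen. Robo3, Sema3e, Epha1, Epha3, Epha7, Unc5d, Efnb2, Ephb1 and Sema4f were outside the rule for named genes and were chosen after their values were seen.

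**Figure D4:**
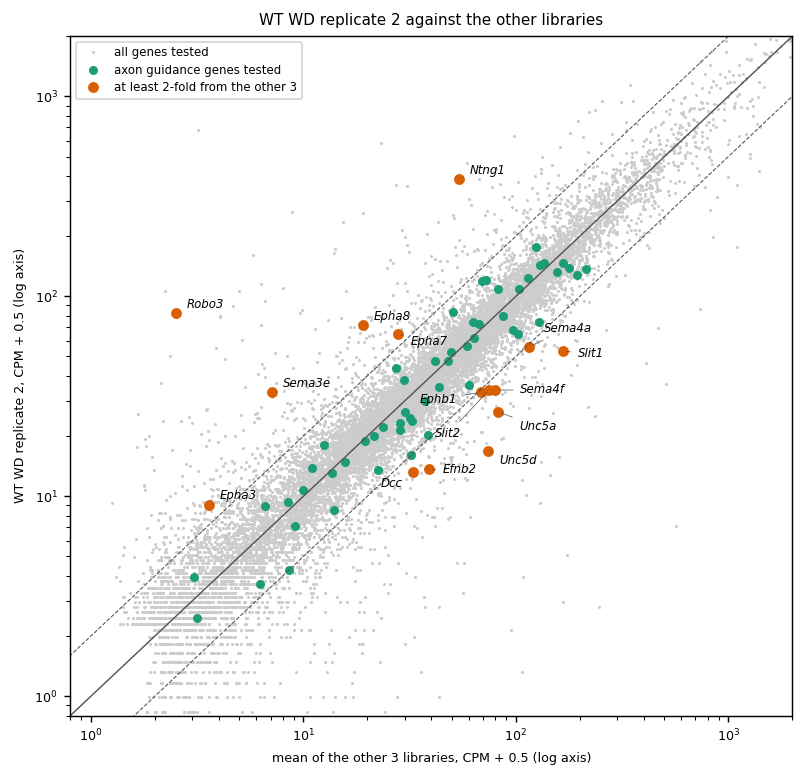
Level in WT2 (vertical, CPM + 0.5, log axis) against the mean of the other 3 libraries (horizontal, same scale) for all genes tested within the plotted range (grey) and for the axon guidance genes (coloured), with the line of equality and dashed lines at 2-fold. Labelled genes are the 15 at least 2-fold from the line, of which Robo3 and Ntng1 lie furthest above and Unc5d and Slit1 furthest below.

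When WT1 was left out instead, so that WT2 alone stood for the WT group, edgeR's quasi-likelihood test called 25 of the 70 axon guidance genes then tested (35.7%), 15 higher and 10 lower in Tas1r3-/- mice, against 14.3% of 14841 genes (7.55% higher and 6.75% lower). One of the 10 lower calls was Epha1, which passed the filter in this fit through WT2, where it is high. Over the 69 genes tested with every library there were 24 calls (34.8%), 9 of them lower, against 14.3% of all genes. With WT2 as the only WT library, the standard errors rest on the spread between KO1 and KO2. Robo3 and Unc5d, which were chosen because WT2 stood apart, had log2 fold changes of -5.17 ± 0.23 and 2.17 ± 0.16. The fit without WT2 gave 0.54 and -0.05 for them. Nrp1 (0.84 ± 0.14) and Plxna2 (0.77 ± 0.11) were among the calls, but Sema3c and Robo2 were not. With KO1 or KO2 left out, 0 of 70 genes were called by edgeR, and 0 were at an unadjusted p under 0.05, against 0.628% and 0.885% of all genes.

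A list of 66 further genes, called the downstream list, was examined, and 65 of them were tested. It held genes for proteins that act downstream of these receptors, such as collapsin response mediators and protein kinases. Other ligands, receptors and adhesion molecules were on it too, among them Cxcl12, Rtn4r and L1cam. The shares of this list are therefore not those of downstream proteins alone. EdgeR's test called 0 of the 65, with 3 at an unadjusted p under 0.05 (4.62%, against 5.38% of all genes), all higher in Tas1r3-/- mice. Of their means 32 were higher (49.2%, against 49% of all genes) and 33 lower, so both shares were near those of all genes. Dpysl2, a mediator of Sema3a signalling, was at 146 CPM in WT1, 131 in WT2, 188 in KO1 and 190 in KO2. Pak3, a kinase activated by Rac and Cdc42, had 151, 107, 199 and 202 CPM in the same order. Rock1, a kinase that acts on the actin cytoskeleton, had 19.7, 21.7, 30.0 and 33.6 CPM. For each of these 3 genes, both KO libraries were above both WT libraries, with log2 fold changes of 0.45 ± 0.13, 0.64 ± 0.20 and 0.62 ± 0.16 and, without WT2, of 0.37, 0.41 and 0.69. The adjusted p was 0.757 for each by edgeR. Rtn4r, the Nogo receptor, was high in WT2 (43.2 CPM against 8.02 to 9.09). Its log2 fold change was -1.69 with all libraries and -0.16 without WT2.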

How the data were processed

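RNA was measured by RNA sequencing in 4 hypothalamus libraries. Per the labels and the study's methods, the authors isolated mRNA, depleted rRNA, made Ion Total RNA-Seq libraries, aligned reads with STAR in Partek Flow to mm39 and quantified RefSeq transcripts; the deposited values are estimated counts per transcript, of which 13.0% are whole numbers. The design was written for counts, so these were summed by gene symbol over 30891 of 30930 transcripts and rounded (39 transcripts without a name, 0.347 to 2.49% of counts, were left out). The table held no transcript with a total under 10.0. Genes were filtered with filterByExpr, scaled by TMM and tested with edgeR 4.0.16 (quasi-likelihood, R 4.3.3), with Benjamini-Hochberg adjustment over all genes. DESeq2 1.42.0 and limma 3.58.1 were alternatives. The tests were tried on simulated data first. The members, marker lists and downstream list were chosen with earlier results of these data known. Genes named in full had a mean of at least 1 CPM and an unadjusted p under 0.05, groups that did not overlap with at least 1.25-fold change, or the highest level per kilobase in their family, or were textbook guidance genes. Downstream genes were named by the same rule at 1.5-fold. No other sample's columns were present. The authors' methods name 3 mice per group; 2 libraries per group were analysed here. Coordinates are GRCm39, from GENCODE.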

Additional observations from a re-analysis of the deposited data

How the results depend on the processing

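The count of axon guidance genes called stayed at 0 under other size factors, other filters on low counts, DESeq2 and limma-trend, and was 4 with an unadjusted p under 0.05 as the threshold. Over all genes DESeq2 called 8 and had 407 at an unadjusted p under 0.05, and edgeR had 772. The labels give replicate numbers without saying whether they pair the libraries. The deviations of same-numbered libraries correlated at 0.0821 over genes, but 2 pairs, with WT2 apart from WT1, cannot decide this. With the replicate block, edgeR called 0 axon guidance genes, 4 were at an unadjusted p under 0.05 and 667 genes over all were.

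Each library was left out in turn, and the lowest and highest values are given. Axon guidance genes called ran from 0 to 25, those at an unadjusted p under 0.05 from 0 to 40, and those without overlap from 29 (41.4%, against 61.9% of all genes, without KO2) to 61 (87.1%, against 82.3%, without WT1). Groups of 2 against 1 overlap less often by construction, and these shares, like the count limited to genes tested with every library, were added after the data had been seen. Over all genes, calls ran from 0 to 2123 and unadjusted p under 0.05 from 93 to 5007. The median log2 fold change ran from 0.05 to 0.16 for all axon guidance genes, from 0.25 to 0.88 for Dcc and neogenin, from -0.06 to 1.19 for the Slits, from 0.02 to 0.86 for the Unc5 receptors, from 0.05 to 0.42, -0.09 to 0.26, -0.10 to 0.000569 and -0.63 to 0.36 for class 3, 5, 6 and 7 semaphorins, from -0.21 to 0.23 for class 4, from -0.14 to 0.03 for the ephrin-A and -0.03 to 0.52 for the ephrin-B ligands, from -0.74 (with Epha1, which is tested only in some fits) to 0.19 for the EphA, -0.16 to 0.06 for the EphB and -0.41 to 0.41 for the Robo receptors, from 0.06 to 0.32 for the plexins, from -0.39 to 0.56 for the netrins and from 0.23 to 0.50 for the neuropilins. The calls among axon guidance genes came from the fit without WT1. Of the 31 members named by the rule, the direction turned with the library left out for Efna3 (-0.36 to 0.04), Efnb3 (-0.24 to 0.52), Epha4 (-0.74 to 0.13), Nrp2 (-0.03 to 0.29), Ntng1 (-2.73 to 0.33), Robo1 (-0.58 to 0.46), Sema3a (-0.14 to 1.04), Sema3f (-0.01 to 0.18), Sema4a (-0.25 to 0.97), Sema5a (-0.34 to 0.16), Sema7a (-0.63 to 0.36), Slit1 (-0.06 to 1.65) and Unc5a (-0.00368 to 1.65), in log2 fold change. Members outside that rule are not all listed here. The direction also turned for several of them, such as Robo3 (-5.17 to 0.54), Epha7 (-1.12 to 0.34) and Unc5d (-0.05 to 2.17). For Efna3 and Nrp2 both ends came from leaving out a Tas1r3-/- library. The cause was not tested. With 2 libraries per group, and low counts for Epha2, small changes could not be told from the spread.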

Other observations

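Shares of a gene's transcripts rest on estimation, since transcripts of one gene have reads in common. Of 37 tested genes with 2 or more transcripts, 16 had the same leading transcript in all 4 libraries. Sema4d, a ligand of Plxnb1, had 13 transcripts, and its leading one held 28.8 to 31.1% of the gene's estimated counts in each library. Sema4f kept its leading transcript at 68.0 to 70.6%, although the gene was lowest in WT2. For Efnb2, the transcript that led in WT1, KO1 and KO2 (70.9%, 69.6% and 75.3%) held 27.7% in WT2. These shares were not tested.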
